A study of Homo sapiens with 9 samples.

Results

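The genes described here encode cytosolic and mitochondrial chaperones, the proteins that help other proteins fold, and the cochaperones that work with them. The list has 43 genes, matched by symbol through GENCODE 29 to 43 of the 60675 rows of the count table. It holds 6 genes of the HSP70 and HSP110 families, 2 HSP90 genes, 6 J proteins, 3 BAG exchange factors, 8 other cochaperones, 2 small heat shock proteins, the 8 subunits of the CCT chaperonin, 2 prefoldin subunits, 4 mitochondrial chaperones and 2 heat shock factors. Of these 43 genes, 40 had enough counts to be tested.

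The cells were HCC827, an established line from a human lung adenocarcinoma with an activating mutation of EGFR, grown in DMEM with serum. They stably carried hairpin G1 against CBX5, hairpin G7 against CBX5, or a non-silencing hairpin called NS, with 3 libraries in each group. CBX5 encodes the heterochromatin protein HP1 alpha, and the series' title ties its loss to resistance to EGFR inhibitors. All 3 groups therefore share the parental line and a stably expressed hairpin, and each hairpin's group is 1 transformed population as far as the labels say. The design text speaks of biological replicates, but no label says that replicates come from separate transductions, so the p-values measure the spread between these libraries, which may be in part technical.

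HSP70 binds exposed hydrophobic stretches of a client protein, J proteins deliver clients and trigger ATP hydrolysis, and exchange factors such as BAG proteins and HSP110 release the nucleotide and the client. STIP1 passes clients to HSP90, whose cycle is set by further cochaperones, and mutant EGFR is among the kinases known to depend on HSP90. Actin and tubulin fold inside the CCT ring, to which prefoldin carries them, while HSP60 with its lid HSP10 and a dedicated HSP70 serve the mitochondrial matrix. Under stress, trimers of heat shock factor 1 bind inverted repeats of GAA, called heat shock elements, near the starts of many of these genes.

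The heat shock elements near the starts of the chaperone genes are shown first, because they are the sequence through which heat shock factor 1 is known to act. A 3-unit element (GAA, any 2 bases, TTC, any 2 bases, GAA, on either strand) was searched from 250 bases before to 50 bases after each RefSeq start. RefSeq (GRCh38.p14) gave 53 promoters for 37 of the 43 genes, and CCT6A, PFDN2, STUB1, FKBP4, HSF1 and ST13 were not in that table. The element was found for 7 of those 37 genes (18.92%), against 166 of all 27305 genes in the table (0.6079%). The 2-unit forms (GAA and TTC, or TTC and GAA, with 2 bases between), which the 3-unit element contains, were found for 21 of the 37 genes (56.76%) and for 4417 of all 27305 genes (16.18%). A match describes the letters only and shows no binding. The 9 stretches that hold the 7 genes' elements are printed 5′ to 3′ on the gene's strand, with the element in capitals. Positions before the start are counted to the element's first base. Most are cut to a few flanking bases.

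CHORDC1, chr11:90223084-90223112, minus strand, 60 bases before the start: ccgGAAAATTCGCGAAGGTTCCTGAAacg
DNAJA1, chr9:33025273-33025291, plus strand, just after the start: gcgGAACTTTCCAGAAcgc
DNAJB6, chr7:157336848-157336910, plus strand, 131 bases before the start: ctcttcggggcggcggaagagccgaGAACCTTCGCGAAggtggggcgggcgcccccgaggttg
HSP90AA1, chr14:102087117-102087135, minus strand, 88 bases before the start: ttcTTCCGGAAGGTTCggg
HSP90AB1, chr6:44247753-44247815, plus strand, 165 bases before the start: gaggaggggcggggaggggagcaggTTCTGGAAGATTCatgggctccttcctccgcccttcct
HSP90AB1, chr6:44247828-44247846, plus strand, 112 bases before the start: ttgTTCTGGAAGCTTCtgg
HSPA8, chr11:123062176-123062194, minus strand, 55 bases before the start: cccTTCTGGAAGGTTCtaa
HSPA8, chr11:123062351-123062369, minus strand, 230 bases before the start: cttGAAAGTTCCAGAAcgc
HSPD1, chr2:197500065-197500088, minus strand, 245 bases before the start: attTTCTGGAAAGTTCTGGAAccg

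HSP90AB1 and HSPA8 each held a pair of separate elements, and in CHORDC1 and HSPD1 overlapping matches form a run of 23 and 18 bases. The element near HSPD1 also lies inside the annotated bounds of its divergent neighbour HSPE1 (chromosome 2, 197499994 to 197503457).

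Library totals ran from 12701561 to 22372353 counts, and 3 counts, the limit that a count of 0 allows, were worth 0.139 to 0.2267 CPM (counts relative to library size, with TMM scaling between libraries) for counting error alone. CBX5 itself had 141.6, 141.5 and 142.6 CPM with G1 and 204.5, 203.6 and 201.5 CPM with G7, against 369.7, 377.1 and 360.9 CPM with NS, lower with both hairpins than with NS. RNA of the mitochondrial genome was 13.37% to 19.82% of each library. G7 replicate 3 held the top share and also differed most from its own group, where the chi-square statistic divided by its degrees of freedom was 22.6 and 17.9 for its 2 pairs and 1.46 for the remaining pair. Of 9 lung epithelial markers 8 were tested, and their summed level was 15020 CPM with G1, 13070 CPM with G7 and 11320 CPM with NS. Most of that was KRT8, KRT18 and KRT19, at 6143, 3601 and 2232 CPM with G1. By the test given below, 7 of the 8 were higher with G1, where 30.4% of all genes were, and EGFR was lower (log2 -0.12). With G7 3 were higher and 0 lower, where 13.1% and 9.64% of all genes were. NKX2-1 was listed at 0, which is uncertain because the table also lists genes in wide use at 0. The 7 fibroblast markers summed to 13.1 to 15.8 CPM in every library. Nearly all of that was COL1A1, which averaged 14.8 CPM with G1, 13.4 CPM with G7 and 14.4 CPM with NS. The 7 leukocyte markers summed to 3.64 to 4.98 CPM with G1 and 7.22 to 8.75 CPM with G7, against 7.69 to 8.87 CPM with NS. Most of that was CD14, which averaged 2.68 CPM with G1, 6.18 CPM with G7 and 6.04 CPM with NS. The 5 endothelial markers summed to 71.2 to 77.1 CPM with G1 and 85.8 to 92.5 CPM with G7, against 84.2 to 92.8 CPM with NS. PECAM1 and CDH5 made up nearly all of that sum and moved in opposite directions with G1 (log2 -0.40 and 0.32). The part of these levels in the chaperone results was not tested.

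With G1, nearly the whole chaperone list was higher. Of 40 tested members, 37 rose, 0 fell and 3 (BAG1, HSF1 and ST13) did not pass the test, which was edgeR's quasi-likelihood test at a Benjamini-Hochberg adjusted p under 0.05. Over all 13264 genes tested, 59.1% were called in this comparison, 30.4% as higher and 28.7% as lower. The median log2 change was 0.57 over the members and -0.01 over all genes. Upper quartile scaling in place of TMM moved the higher share of all calls to 38.9%, against 51.4%, and then 35 members rose and 2 (BAG1 and ST13) fell. All 3 G1 libraries lay above all 3 NS libraries in each of the 37 called members, as they did for 32.5% of all genes tested and for 96.8% of all genes called higher. RNA came from bulk cells, so a change in the mix of cells and a change in RNA per cell cannot be told apart.

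With G7, about as many members rose as did not pass. There were 19 higher, 1 lower (BAG1) and 20 not called, where 22.7% of all genes were called, 13.1% as higher and 9.64% as lower. The members' median log2 change was 0.16, and that of all genes was 0.01. With upper quartile scaling 46.6% of all calls were higher, against 57.6% with TMM, and 16 members rose. All 3 G7 libraries lay above all 3 NS libraries for 25 of the 40 tested members (62.5%), against 19.3% of all genes tested. Of these 25 members 19 were called, and the libraries overlapped for 14 others. No member was over 1.5-fold higher with G7, while 19 were with G1. The share of all genes over that fold was not counted, so this difference is not set against a background. The G1 and G7 comparisons use the same NS libraries, so their values are given side by side and not as 2 independent results.

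The hairpins were also compared with each other. With G1 31 members were higher than with G7, 0 were lower and 9 were not called, where 44.9% of all genes were called, 23.3% as higher and 21.6% as lower. The members' median log2 difference, G1 minus G7, was 0.37. With upper quartile scaling 38.5% of all calls were higher, against 51.9% with TMM, and 29 members were higher. The 8600 genes with a mean of at least 10 CPM, among them 38 members, were counted as well, a background chosen after the data had been seen. Of these genes, 40.3% were higher with G1 than with NS, 18.3% with G7 than with NS, and 31.8% with G1 than with G7. The 38 members gave 35, 19 and 29 higher calls in those 3 comparisons.

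**Figure D1:**
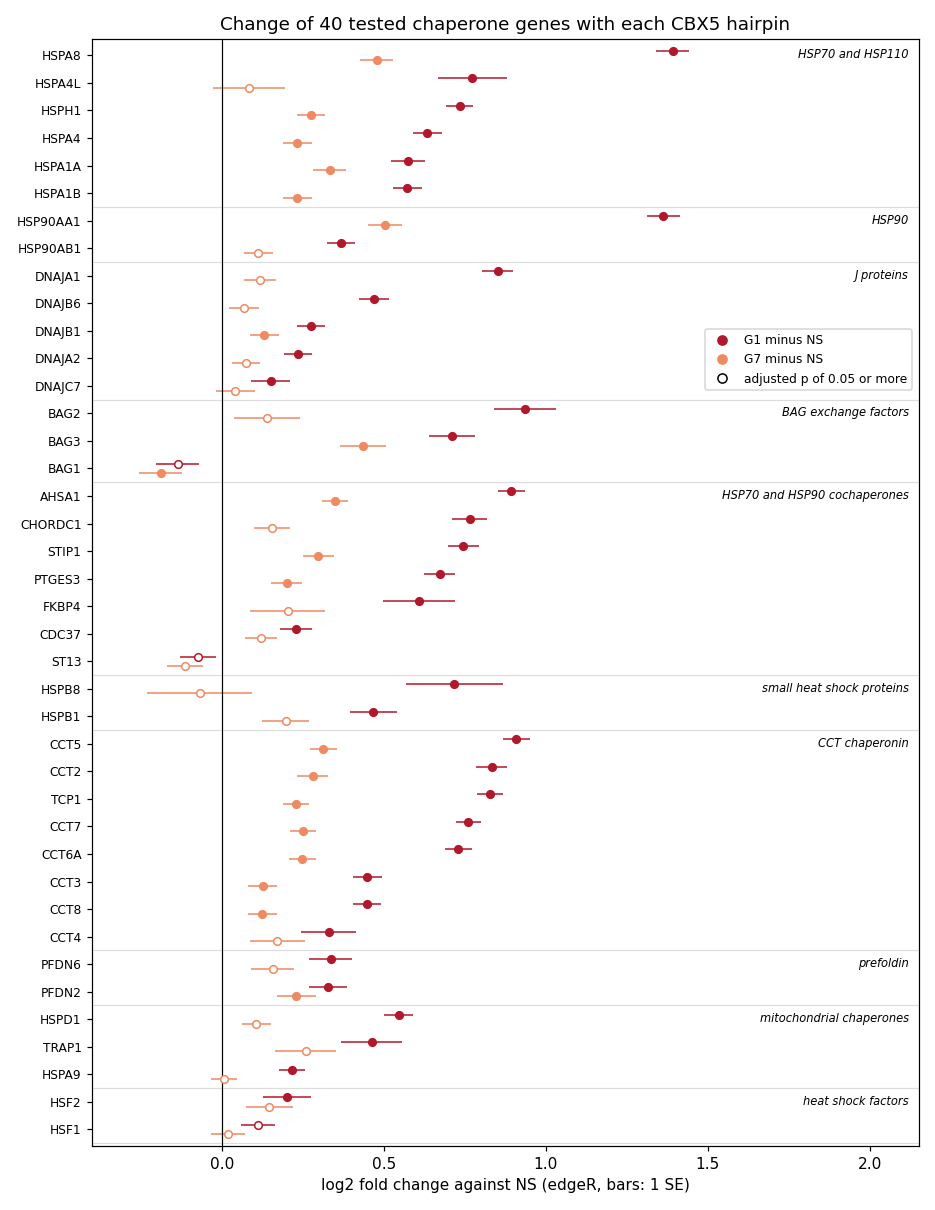
Log2 fold change against NS (x axis, edgeR) of the 40 tested chaperone genes, grouped by role, with G1 in dark red and G7 in orange; bars are 1 SE and open circles mark an adjusted p of 0.05 or more. With G1 the points run from -0.14 for BAG1 to 1.39 for HSPA8, with G7 from -0.19 for BAG1 to 0.50 for HSP90AA1.

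As a share of all counts, the 43 genes made up 1.96% to 2.03% of each G1 library and 1.37% to 1.43% of each G7 library, against 1.19% to 1.24% of each NS library. Their summed level was 20600 ± 324 CPM with G1 and 14060 ± 198 CPM with G7, against 11740 ± 309 CPM with NS (SD, n = 3 each). The sum was thus 1.755 times that of NS with G1 and 1.198 times with G7. One gene carried much of it. HSP90AA1 gave 31.9% to 32.1% of the chaperone counts in G1 libraries and 25.6% to 26.1% in G7 libraries, against 21.2% to 22.4% in NS libraries. Without HSP90AA1 the sum was 1.526 times that of NS with G1 and 1.136 times with G7.

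HSP90 comes in an inducible cytosolic form, HSP90AA1, and a constitutive one, HSP90AB1. HSP90AA1 (ENSG00000080824, GRCh38 chromosome 14, 102080738 to 102139699) had 6465, 6629 and 6698 CPM with G1 and 3550, 3631 and 3723 CPM with G7, against 2606, 2676 and 2409 CPM with NS. The 3 groups did not overlap. It rose by 1.36 ± 0.052 with G1 and by 0.50 ± 0.051 with G7 on the log2 scale (SE; edgeR adjusted p = 2.13e-13 and 1.76e-06), and G1 exceeded G7 by 0.86 (edgeR adjusted p = 2.90e-10). HSP90AB1 (chromosome 6, 44246166 to 44253888) had 1889, 1985 and 1901 CPM with G1 and 1618, 1638 and 1584 CPM with G7, against 1517, 1513 and 1447 CPM with NS. These groups did not overlap either. The log2 change was 0.37 with G1 (edgeR adjusted p = 1.01e-06) and 0.11 with G7 (edgeR adjusted p = 0.0738). The G7 value passed without G7 replicate 3, at 0.13 and an edgeR adjusted p of 0.0382. The ratio of HSP90AA1 to HSP90AB1 CPM was 3.43 ± 0.092 with G1 and 2.25 ± 0.084 with G7, against 1.72 ± 0.052 with NS (SD, n = 3 each), and the 3 groups' ratios did not overlap. Their coding sequences are 64.7% identical in a pairwise alignment.

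Among the HSP70 and HSP110 genes, 6 of 6 rose with G1 and 5 of 6 with G7, where 30.4% and 13.1% of all genes rose. HSPA8 (ENSG00000109971, chromosome 11, 123057489 to 123063230), the constitutive cytosolic HSP70, had 1693, 1667 and 1798 CPM with G1 and 878, 880.2 and 979.6 CPM with G7, against 646, 669 and 652 CPM with NS. The groups did not overlap, and G7 replicate 3 was the highest of the G7 libraries. On the log2 scale HSPA8 rose by 1.39 ± 0.051 with G1 and by 0.48 ± 0.050 with G7 (SE; edgeR adjusted p = 1.21e-13 and 2.37e-06). HSPA8 and HSP90AA1 were the 2 members over 2-fold higher with G1.

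The stress-inducible HSP70 genes HSPA1A and HSPA1B lie next to each other on chromosome 6. HSPA1A had 143.7, 136.5 and 140.9 CPM with G1 and 117.9, 112.4 and 125.3 CPM with G7, against 97.3, 88.1 and 97.2 CPM with NS. HSPA1B had 120.3, 114 and 119 CPM with G1 and 95.9, 92.5 and 90.9 CPM with G7, against 79.2, 77.6 and 80.7 CPM with NS. Neither gene's groups overlapped. The log2 changes with G1 were 0.58 for HSPA1A and 0.57 for HSPA1B. With G7 they were 0.33 and 0.23 (edgeR adjusted p = 0.00015 and 0.00107). The coding sequences of this pair are identical at 1919 of 1923 bases (99.8%), so how the counter split their reads is uncertain, and 36.49% of the exon bases of HSPA1B are shared with another annotated transcript on its strand. Their sum does not depend on that split, though a counter that skips shared or multiply mapped reads would lower it too. It was 258 ± 6.92 CPM with G1 and 212 ± 5.94 CPM with G7, against 173 ± 6.73 CPM with NS (SD, n = 3 each). The ratio of HSPA8 CPM to that sum, which compares the groups and not the genes' levels, was 6.66 with G1 and 4.31 with G7, against 3.79 with NS. HSPA6, a strictly heat-inducible HSP70 outside the 43 genes, was listed at 0 in all 9 libraries. The table also lists genes in wide use, such as STUB1, HSPE1 and BAG5, at 0, so the 0 of HSPA6 is uncertain too.

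HSPH1, HSPA4 and HSPA4L encode HSP110 proteins, which act as exchange factors of HSP70. HSPH1 averaged 339.5 ± 1.62 CPM with G1 and 247 ± 8.12 CPM with G7, against 204 ± 7.38 CPM with NS (SD, n = 3 each). Its groups did not overlap, and it rose by 0.73 with G1 and 0.28 with G7. HSPA4 rose by 0.63 with G1 and 0.23 with G7. HSPA4L, the scarcest of the 40 tested members per length, averaged 14.1 ± 0.614 CPM with G1 and 8.76 ± 1.07 CPM with G7, against 8.26 ± 0.756 CPM with NS. It was raised with G1 (log2 0.77, edgeR adjusted p = 5.08e-06), while its G7 and NS libraries overlapped (log2 0.08, edgeR adjusted p = 0.648).

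All 5 tested J proteins rose with G1 and 1 of 5 (20%), DNAJB1, with G7. The shares of all genes that rose were 30.4% and 13.1%, so the G7 count was near that of all genes. DNAJA1, the main farnesylated cytosolic J protein, had 203, 209 and 215 CPM with G1 and 124, 122 and 131 CPM with G7, against 122.7, 115 and 109 CPM with NS. All G1 libraries stood above the rest, while G7 and NS libraries overlapped. The log2 change was 0.85 ± 0.048 with G1 (SE; edgeR adjusted p = 4.38e-11) and 0.12 ± 0.049 with G7 (edgeR adjusted p = 0.0921), and G1 exceeded G7 by 0.73. The G7 value passed without NS replicate 1 (0.16, edgeR adjusted p = 0.0447).

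DNAJB1, the J protein that pairs with HSP70 in disaggregation, had 165, 175 and 177 CPM with G1 and 160.5, 156 and 151 CPM with G7, against 146, 139 and 142 CPM with NS. The groups lay close without overlap. It rose by 0.28 with G1 and by 0.13 with G7 (edgeR adjusted p = 0.0372). The G7 call ended without G1 replicate 1, G7 replicate 1 or 2, or any 1 NS library (log2 0.11 to 0.15, edgeR adjusted p = 0.0507 to 0.142). DNAJB6, a suppressor of polyglutamine aggregation, rose by 0.47 with G1. DNAJA2, a second type A J protein, rose by 0.24 with G1. DNAJC7, which has tetratricopeptide repeats and binds HSP70 and HSP90, had a log2 change of 0.15 with G1 (edgeR adjusted p = 0.0402). That call ended without G1 replicate 2 or 3 or NS replicate 1 or 3 (0.10 to 0.17, edgeR adjusted p = 0.0548 to 0.188). With G7 the log2 values of DNAJB6, DNAJA2 and DNAJC7 were 0.07, 0.07 and 0.04, none called. DNAJB4 was at 0.0756 to 0.316 CPM, near the limit of 3 counts, and was not tested.

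The BAG exchange factors did not move as one. BAG2, which also inhibits the ubiquitin ligase STUB1, had 19.8, 23.4 and 20.2 CPM with G1 and 11.9, 11.7 and 12.9 CPM with G7, against 12.6, 10.8 and 10.0 CPM with NS. G1 libraries stood apart, while G7 and NS libraries overlapped. Its log2 change of 0.94 ± 0.097 with G1 (SE; edgeR adjusted p = 1.56e-07) was the next largest after HSPA8 and HSP90AA1, against 0.14 with G7 (edgeR adjusted p = 0.362). Of its annotated exon bases, 42.73% overlap RAB23 on the opposite strand, so its count is uncertain without the strand setting of the counting.

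BAG3, the factor of chaperone-assisted autophagy, had 181, 169.5 and 189 CPM with G1 and 141, 135 and 169 CPM with G7, against 101, 112 and 116 CPM with NS. All G7 libraries lay above those of NS. It rose with both hairpins, by 0.71 with G1 and 0.44 with G7 (edgeR adjusted p = 8.68e-08 and 0.000216), and no G7 library reached the G1 range. BAG1, which links HSP70 to the proteasome, had 32.4, 34.2 and 31.4 CPM with G1 and 31.3, 30.8 and 32.4 CPM with G7, against 39.5, 34.9 and 33.7 CPM with NS. All G7 libraries lay below all NS libraries, and G1 libraries overlapped both groups. Its log2 change was -0.14 with G1 (edgeR adjusted p = 0.0871) and -0.19 with G7 (edgeR adjusted p = 0.0472). The G7 call ended without NS replicate 1 or 2, G7 replicate 1 or 2, or G1 replicate 2 or 3 (-0.21 to -0.12, edgeR adjusted p = 0.0563 to 0.25), and the G1 value passed without NS replicate 3 (-0.18, edgeR adjusted p = 0.0376).

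Of the other cochaperones, 6 of 7 tested rose with G1 and 3 with G7, where 30.4% and 13.1% of all genes rose. AHSA1, the activator of the HSP90 ATPase, had 290.0, 291 and 304 CPM with G1 and 199.6, 201 and 206 CPM with G7, against 158, 163 and 155 CPM with NS. The groups did not overlap, and the log2 changes were 0.89 ± 0.041 with G1 and 0.35 ± 0.041 with G7 (SE; edgeR adjusted p = 1.93e-12 and 7.92e-06). STIP1, the adaptor between HSP70 and HSP90, had 465, 461 and 498 CPM with G1 and 342, 335 and 367 CPM with G7, against 272, 294 and 283 CPM with NS. It rose by 0.75 with G1 and 0.30 with G7, again without overlap.

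PTGES3, also called p23, which stabilises the closed form of HSP90, rose by 0.67 with G1 and 0.20 with G7. CHORDC1, an HSP90-binding protein also known as morgana, had 94.4, 88.2 and 92.7 CPM with G1 and 57.5, 59.4 and 63.3 CPM with G7, against 54.5, 56.6 and 51.0 CPM with NS. No group overlapped another. The log2 change was 0.77 with G1 and 0.15 with G7 (edgeR adjusted p = 9.85e-10 and 0.0519). The G7 value passed without G7 replicate 1 or NS replicate 2 (0.19 in both, edgeR adjusted p = 0.0433 and 0.042). FKBP4, an immunophilin of steroid receptor complexes, averaged 9.50 ± 0.717 CPM with G1 and 7.16 ± 0.399 CPM with G7, against 6.22 ± 0.619 CPM with NS (SD, n = 3 each). Its rise with G1 was 0.61 (edgeR adjusted p = 0.000129).

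CDC37 and ST13 had small changes. CDC37, which loads kinases onto HSP90, had a log2 change of 0.23 with G1 (edgeR adjusted p = 0.000609) and 0.12 with G7 (edgeR adjusted p = 0.0889). ST13, the HSP70-interacting protein that slows nucleotide release, had 405, 404 and 451 CPM with G1 and 385, 393 and 446 CPM with G7, against 439.8, 460.3 and 426 CPM with NS. Its libraries overlapped between all groups (log2 -0.07 with G1 and -0.11 with G7, edgeR adjusted p = 0.274 and 0.159), and without G7 replicate 3 the G7 value was -0.18 at an edgeR adjusted p of 0.00731. STUB1, the ubiquitin ligase CHIP, was listed at 0 in all 9 libraries. Of its exon bases 42.44% overlap JMJD8, which was at 0 too, so that 0 is uncertain.

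**Figure D2:**
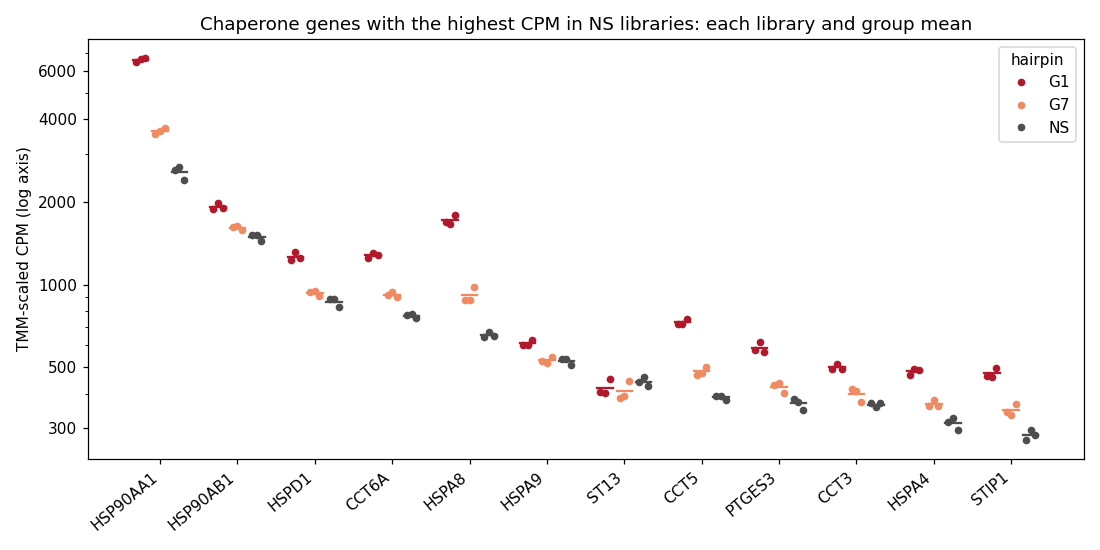
TMM-scaled CPM (log y axis) of the 12 chaperone genes with the highest NS levels, 1 point per library with a line at each group mean, in the order G1, G7 and NS. HSP90AA1 takes the most CPM in each group (CPM is not divided by gene length), HSPA8 and HSP90AA1 have the widest steps between groups, and the ST13 libraries of the 3 groups overlap.

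The CCT chaperonin is a double ring of different subunits, each from its own gene. All 8 subunit genes rose with G1, by a median of 0.75 on the log2 scale (range 0.33 to 0.91). With G7, 7 of 8 rose, and the median over the 8 was 0.24. The shares of all genes that rose were 30.4% with G1 and 13.1% with G7. Summed over the 8 genes the level was 3747 ± 64.7 CPM with G1 and 2678 ± 34.4 CPM with G7, against 2283 ± 38.4 CPM with NS (SD, n = 3 each), which is 1.641 and 1.173 times that of NS. CCT5, the epsilon subunit, had 718, 716 and 752 CPM with G1 and 468, 477 and 502 CPM with G7, against 393, 392 and 379 CPM with NS. Its log2 change of 0.91 ± 0.042 with G1 and 0.31 ± 0.042 with G7 was the largest of the ring with each hairpin (SE; edgeR adjusted p = 2.76e-12 and 3.63e-05). The groups did not overlap. An antisense gene overlaps 30.09% of its exon bases, so this count is uncertain in the same way as that of BAG2.

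TCP1, the alpha subunit, had 387, 403 and 395 CPM with G1 and 266, 264 and 253 CPM with G7, against 229, 219.5 and 219.7 CPM with NS, without overlap. CCT2, CCT7 and CCT6A, the beta, eta and zeta subunits, rose by 0.83, 0.76 and 0.73 with G1, beside 0.83 for TCP1, and by 0.28, 0.25 and 0.25 with G7, beside 0.23 for TCP1. CCT3 and CCT8, the gamma and theta subunits, moved less, by 0.45 each with G1. With G7 both had a log2 change of 0.13 (edgeR adjusted p = 0.0483 for CCT3 and 0.0471 for CCT8). The G7 call of CCT3 ended without any 1 library except G7 replicate 3 (0.10 to 0.14, edgeR adjusted p = 0.0521 to 0.196), and the G7 call of CCT8 without any 1 library except NS replicate 1 (0.08 to 0.14, edgeR adjusted p = 0.0563 to 0.168).

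CCT4, the delta subunit, had 38.8, 36.4 and 39.2 CPM with G1 and 32.4, 29.8 and 39.7 CPM with G7, against 29.02, 31.3 and 30.5 CPM with NS. G7 replicate 3 lay above all G1 libraries and the other G7 libraries near those of NS, and the G1 libraries lay above all NS libraries. Its log2 change was 0.33 with G1 (edgeR adjusted p = 0.00258) and 0.17 with G7 (edgeR adjusted p = 0.158). The G7 value passed without G7 replicate 2 (0.25, edgeR adjusted p = 0.0398). Between hairpins, CCT4 was not called (0.16, edgeR adjusted p = 0.119) but was without G7 replicate 3 (0.29, edgeR adjusted p = 0.000935).

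Per kilobase of annotated exon, the ring's genes did not stand at equal levels. CCT6A had 328 CPM per kb with G1 and 235 with G7, against 198 with NS, and CCT4 had 13.5 with G1 and 11.99 with G7, against 10.7 with NS. The other 6 lay between 63.1 and 124.8 CPM per kb with G1. CCT4 has the fewest exon bases of the ring (2830), and its CPM before division by length was the lowest of the ring too. Why its level is low was not tested. Exon length here is the union over all annotated transcripts, so genes with long minor transcripts have low values on this scale. On the same scale HSP90AA1 had 1257 ± 22.8 CPM per kb with G1 and 693 ± 16.5 with G7, where it was first among the members, against 489 ± 26.4 with NS, where HSP90AB1, at 501 ± 13.2, did not differ from it beyond the spread (SD, n = 3 each). HSPA8 ranked 3 with G1, at 355 CPM per kb, and 5 with G7 and with NS, at 188 and 135 CPM per kb. HSPA4L was last in each group, at 1.21, 0.754 and 0.711 CPM per kb with G1, G7 and NS.

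Prefoldin hands unfolded actin and tubulin to CCT. PFDN2 had 32.01, 33.8 and 33.4 CPM with G1 and 31.6, 30.2 and 30.9 CPM with G7, against 26.6, 26.4 and 26.1 CPM with NS. Its groups did not overlap. It rose with both hairpins, by 0.33 with G1 and 0.23 with G7 (edgeR adjusted p = 0.000107 and 0.00849), and the difference between hairpins was not called (0.10 ± 0.056, SE; edgeR adjusted p = 0.165). PFDN6, whose exon bases overlap RGL2 at 24.52% and whose count is therefore uncertain, rose by 0.34 with G1 and had 0.16 with G7 (edgeR adjusted p = 0.103). The 0.18 by which G1 exceeded G7 (edgeR adjusted p = 0.0303) was lost without G1 replicate 3 or G7 replicate 1 or 2 (0.12 to 0.18, edgeR adjusted p = 0.0613 to 0.167).

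The small heat shock proteins hold unfolded clients without ATP. HSPB1, or HSP27, had 252, 222 and 247 CPM with G1 and 191, 183.5 and 222.1 CPM with G7, against 156, 174 and 190.5 CPM with NS. The G1 libraries stood above the rest by a narrow gap, and G7 and NS libraries overlapped. HSPB1 rose by 0.47 with G1, and its G7 value of 0.20 (edgeR adjusted p = 0.0558) passed without G1 replicate 2, G7 replicate 2 or NS replicate 3 (0.20, 0.25 and 0.27, edgeR adjusted p = 0.0433, 0.0267 and 0.0232). HSPB8, the partner of BAG3, had 4.98, 5.22 and 5.33 CPM with G1 and 3.24, 3.35 and 2.47 CPM with G7, against 3.48, 3.16 and 2.86 CPM with NS. With G1 it was higher than in both other groups, by 0.72 from NS and by 0.79 from G7 (edgeR adjusted p = 0.000454 and 0.000193), while G7 and NS libraries overlapped (log2 -0.07, edgeR adjusted p = 0.811).

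In mitochondria, 3 of 4 genes were tested, all 3 rose with G1 and 0 were called with G7. Over all genes, 30.4% rose with G1 and 22.7% were called with G7, and 3 genes are too few to set against these shares. HSPD1, the HSP60 chaperonin, had 1233, 1313 and 1246 CPM with G1 and 938, 951 and 909 CPM with G7, against 887, 885 and 826 CPM with NS. The groups did not overlap. Its log2 change was 0.55 ± 0.045 with G1 and 0.11 ± 0.045 with G7 (SE; edgeR adjusted p = 8.16e-09 and 0.101), the G7 value passing without G7 replicate 3 (0.13, edgeR adjusted p = 0.0446). HSPA9, or mortalin, the matrix HSP70, had 603, 603 and 627 CPM with G1 and 525, 519 and 543 CPM with G7, against 534, 533 and 511 CPM with NS. All 3 G1 libraries lay above those of G7 and NS. On the log2 scale G1 exceeded NS by 0.22 and G7 by 0.21 (edgeR adjusted p = 0.000171 and 0.000393), and the G7 change from NS was 0.01 ± 0.041 (SE; edgeR adjusted p = 0.922).

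TRAP1, the mitochondrial HSP90, had 24.1, 24.0 and 25.7 CPM with G1 and 20.3, 20.6 and 23.2 CPM with G7, against 18.9, 14.7 and 19.8 CPM with NS. The groups did not overlap, though NS replicate 2 lay well below its group. With G1 it rose by 0.46 (edgeR adjusted p = 0.000345), while the G7 value of 0.26 (edgeR adjusted p = 0.054) passed without NS replicate 3 (0.35, edgeR adjusted p = 0.0257). DNASE1 covers 29.29% of its exon bases, so this count is uncertain as well. HSPE1, the HSP10 lid, was listed at 0 in all 9 libraries, as was HSPE1-MOB4, an annotated readthrough gene over it. That 0 is uncertain, so the HSP60 system was measured through HSPD1 alone.

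The heat shock factors had small changes. HSF1, the main stress-activated factor, had 78.7, 75.0 and 74.3 CPM with G1 and 73.5, 68.7 and 71.4 CPM with G7, against 66.6, 69.2 and 74.8 CPM with NS. All 3 groups' libraries lay close, and the G1 and NS libraries overlapped. Its log2 change was 0.11 ± 0.052 with G1 and 0.02 ± 0.052 with G7 (SE; edgeR adjusted p = 0.0743 and 0.833), the G1 value passing without NS replicate 3 (0.16, edgeR adjusted p = 0.0153). HSF2, a second factor of the family, averaged 19.6 ± 0.537 CPM with G1 and 18.9 ± 1.07 CPM with G7, against 17.02 ± 0.525 CPM with NS (SD, n = 3 each). The call with G1 (log2 0.20, edgeR adjusted p = 0.0269) ended without G1 replicate 2 or 3 or NS replicate 2 (0.18 to 0.21, edgeR adjusted p = 0.0523 to 0.0832). The activity of these factors, which is set after translation, was not measured.

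The 7 members with a 3-unit heat shock element printed above differed widely in their changes. Their log2 changes with G1 ran from 0.37 for HSP90AB1 to 1.39 for HSPA8, with a median of 0.77. The 28 tested members whose RefSeq promoters lack the 3-unit element ran from -0.14 to 0.94, with a median of 0.57. Many of these 28 hold a 2-unit form, among them HSPA1A, HSPA1B, DNAJB1 and HSPB1, so they are not a set without heat shock elements. With G7 the medians were 0.12 with the element and 0.18 without it. HSP90AB1 and HSPA8, which hold a pair of elements each, had the smallest and the largest of the 7 changes with G1. With G7 they had 0.11 and 0.48, inside the range from 0.07 for DNAJB6 to 0.50 for HSP90AA1. These values describe the members and were not tested.

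**Figure D3:**
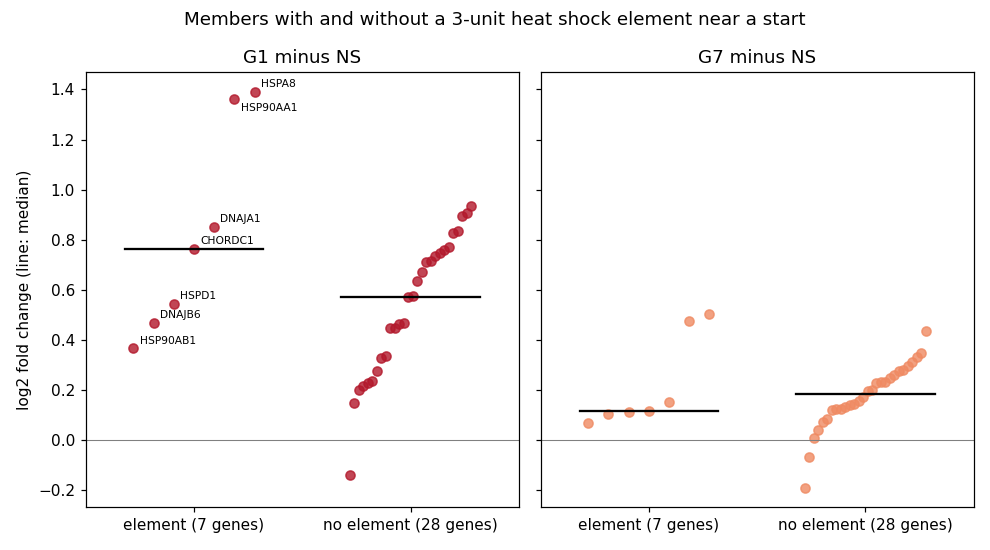
Log2 fold change (y axis) with G1 minus NS on the left and G7 minus NS on the right, for the 7 tested members with a 3-unit heat shock element near a RefSeq start and the 28 without; each point is a gene and the line is the median. With G1 the medians are 0.77 and 0.57, and both sets overlap widely.

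Genes of the same pathways outside the 43 members were taken from 7 further lists. Of their 73 tested genes, 34 (46.6%) rose and 13 (17.8%) fell with G1, where 30.4% of all genes rose and 28.7% fell. With G7 15 (20.5%) rose and 4 (5.48%) fell, where 13.1% of all genes rose and 9.64% fell. These counts describe the lists and were not tested against all genes. Of 7 tested further HSP70s and exchange factors, 4 rose and 2 fell with G1 (median log2 0.17). HSPA14, a ribosome-linked HSP70, rose by 0.83, the exchange factor HSPBP1 rose by 0.65, and HSPA13, a microsomal HSP70, fell by 0.61 on the log2 scale. Of 17 tested further J proteins, 5 rose and 5 fell with G1 (29.4% each, near the shares of all genes; median -0.01). DNAJC9, also a histone chaperone, rose by 1.001, DNAJC8, linked to splicing, rose by 0.57, and DNAJC18, a membrane-bound J protein, fell by 0.65 on the log2 scale.

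Of 12 tested further HSP90 cochaperones, 6 rose and 1 fell with G1 (median 0.30). FKBP5, the immunophilin FKBP51, rose by 1.02 and NUDC, a cochaperone of dynein-linked clients, by 0.76, and the pseudogene AHSA2P fell by 0.87 on the log2 scale. Of 15 tested prefoldin subunits and CCT helpers, 9 rose and 1 fell (median 0.24). Among them the prefoldin subunit VBP1 rose by 0.71 and the phosducin-like CCT helpers PDCL3 and PDCL by 0.56 and 0.37. HSPB11, the 1 tested further member of the small heat shock protein list, rose by 0.54.

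Of 15 tested further mitochondrial chaperones and proteases, 7 rose and 1 fell with G1 (median 0.18). These included GRPEL1, the exchange factor of mortalin (0.44), the outer membrane J protein DNAJC11 (0.45) and the inner membrane protease YME1L1 (0.25). Of 6 tested regulators and relatives of heat shock factors, 2 rose and 3 fell with G1 (median -0.14), too few to set against the shares of all genes. The segregase VCP rose by 0.50 and HSBP1, a binding protein of HSF1, by 0.45, while HSF4 fell by 0.83 on the log2 scale. With G7, 3, 1, 5, 2, 1, 2 and 1 members of these 7 lists were higher and 1, 1, 1, 0, 0, 0 and 1 were lower, in the order given.

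Chaperones of the endoplasmic reticulum moved the other way. Of 17 tested, 1 rose and 16 fell with G1 (median log2 -0.88), and 0 rose and 15 fell with G7 (median -0.53), where 28.7% of all genes fell with G1 and 9.64% with G7. The J protein DNAJC1, named after its values were seen, was the 1 that rose with G1, by 0.20. HSPA5, or BiP, the HSP70 of that compartment, averaged 449 ± 19.1 CPM with G1 and 931 ± 35.5 CPM with G7, against 1766 ± 44.5 CPM with NS (SD, n = 3 each), log2 changes of -1.97 and -0.92. The cochaperone-like MANF had -1.69 and -0.88, and HYOU1, the HSP110 of the compartment, -1.26 and -0.71. The summed level of the 17 genes was 5268 ± 63.3 CPM with G1 and 6132 ± 105 CPM with G7, against 9096 ± 225 CPM with NS (SD, n = 3 each).

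**Figure D4:**
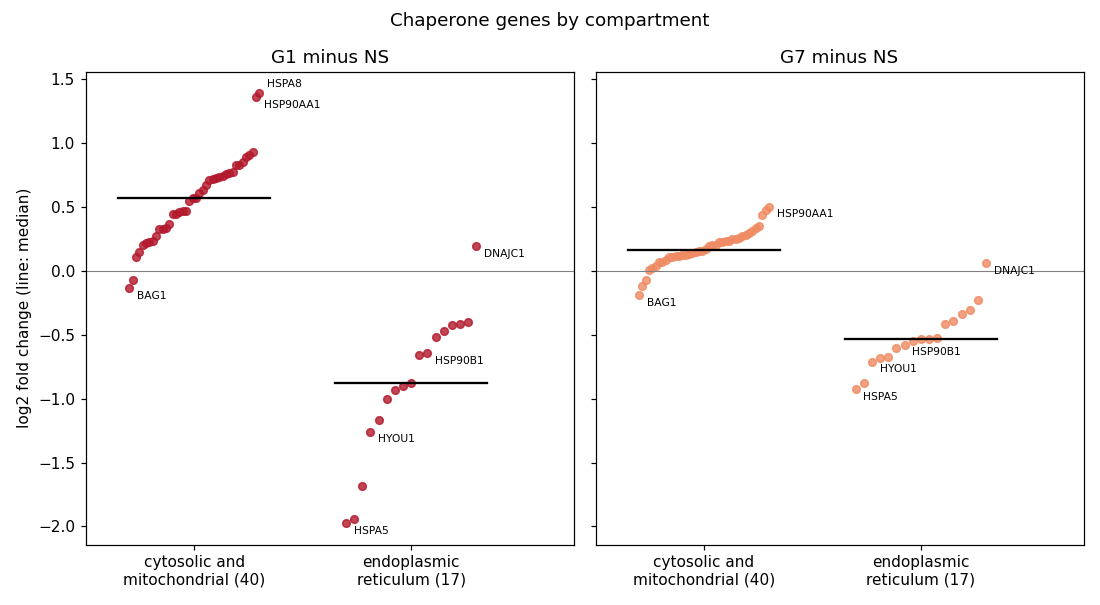
Log2 fold change (y axis) of the 40 tested cytosolic and mitochondrial chaperones and of 17 chaperones of the endoplasmic reticulum, with G1 minus NS on the left and G7 minus NS on the right; each point is a gene and the line is the median. With G1 the medians are 0.57 and -0.88, with G7 0.16 and -0.53.

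Immediate early genes, which respond to handling within minutes, were counted as a sign of how cells were collected. Of 9 tested, 3 (33.3%) rose and 5 (55.6%) fell with G1, where 59.1% of all genes were called, 30.4% as higher and 28.7% as lower. With G7 2 of the 9 (22.2%) rose and 0 fell, near the 22.7% of all genes called, 13.1% as higher and 9.64% as lower. BTG2, EGR1 and FOS had log2 changes of -1.03, -0.98 and -0.91 with G1 and of -0.08, -0.05 and -0.11 with G7. The part of handling in the chaperone levels was not tested.

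Most calls held in each of the 18 alternative fits. With G1 35 of the 37 higher calls did, the exceptions being DNAJC7 and HSF2. With G7 16 of the 19 higher calls did, the exceptions being DNAJB1, CCT3 and CCT8. Between hairpins 29 of the 31 higher calls did, the exceptions being DNAJB1 and PFDN6. Settings other than a left-out library moved calls too. With G7, 7 of them ended the call of CCT8, 5 that of CCT3, 5 that of DNAJB1 and 4 that of BAG1. Among uncalled G7 values, that of HSPB1 passed with DESeq2, without a filter, with the replicate block and in thinned libraries. That of HSP90AB1 passed with DESeq2 and without mitochondrially encoded genes. The G7 value of TRAP1 passed without a filter and with the replicate block, that of CDC37 with the replicate block, and that of HSF2 in thinned libraries. Leaving out G7 replicate 3, the library with the highest mitochondrial share, moved these counts. Then 20 members were higher and 2 lower with G7, and 35 were higher with G1 than with G7. Over all genes, 1965 were then higher and 1356 lower with G7, against 1735 and 1279 with all libraries. With G1 3079 of all genes were then higher than with G7, against 3092.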

How the data were processed

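Per the labels, polyadenylated RNA of 9 HCC827 libraries was sequenced with a strand-marking dUTP protocol. The values are unnormalized read counts by Ensembl gene, as deposited. TopHat2 2.1.0, HTSeq 0.6.0 and build hg38 (GRCh38) are named per the submitters' processing notes, while the sources used here give neither the annotation nor the strand setting of the counting. A counter that skips shared or multiply mapped reads lowers overlapping or near-identical genes. Of the 43 members, 23 share annotated exon bases with another gene, so their counts are uncertain. The text marks the 6 that share over 20% with 1 gene, and HSPE1. Each of the others shares at most 9.72% with any 1 gene. Of 60675 rows, 57055 matched GENCODE 29, and the other 3620 held 0.025% of the counts.

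Genes were kept by filterByExpr (13264), scaled by TMM and fitted with edgeR 4.0.16 in R 4.3.3 with a mean per group over all 9 libraries (common dispersion 0.00217). Contrasts were tested two-sided by glmQLFTest with Benjamini-Hochberg adjustment over all genes tested, and called at an adjusted p under 0.05. CPM values are TMM-scaled, and a value after ± is the SD of 3 libraries or the stated SE. The limit of 3 counts covers counting error only. Every replicate pair differed by more than sampling noise (chi-square per degree of freedom 1.46 to 22.6). Alternatives were RLE and upper quartile scaling, 2 other filters, DESeq2 1.42.0, fits of 2 groups, a replicate block, no mitochondrially encoded genes, thinned libraries and leaving out each library.

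The text names all 43 members, CBX5, and up to 3 tested genes of each further list with the smallest p with G1; HSPA6, JMJD8, HSPE1-MOB4 and the overlapping genes were added after values had been seen. The members and lists were chosen with earlier results of these data known. The planned comparison of protein sequences was replaced by coding sequences from GENCODE 29, chosen after seeing the data.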

Additional observations from a re-analysis of the deposited data

How the results depend on the processing

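Between G1 and NS the count of lower members moved from 0 to 2 under upper quartile scaling, to 1 with the stricter filter and to 1 in thinned libraries, and lay between 0 and 1 with 1 library left out. Between G7 and NS the count of lower members moved from 1 to 0 without a filter, with DESeq2, with only the groups compared and with the replicate block, and lay between 0 and 2 with 1 library left out. The lower calls concern BAG1 and ST13, and why these settings move them was not tested. Counts of higher members lay at 35 to 37, 16 to 20 and 30 to 35 with 1 library left out, for G1 minus NS, G7 minus NS and G1 minus G7. Over all genes the higher calls in the same fits and order lay at 3674 to 4257, 1350 to 1965 and 2684 to 3170.

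Signs turned for members that were called in neither fit. With G7 minus NS these were HSPA4L (-0.0034 without G7 replicate 3), DNAJC7 (-0.032 without G7 replicate 3 and -0.0058 without NS replicate 3), HSPB8 (0.069 without G7 replicate 3), HSPA9 (-0.02 under upper quartile scaling, -0.0064 with the stricter filter, -0.0039 without mitochondrially encoded genes, -0.0062 without G1 replicate 1, -0.0096 without G7 replicate 3 and -0.013 without NS replicate 3) and HSF1 (-0.0079 under upper quartile scaling, -0.0023 without G7 replicate 1 and -0.016 without NS replicate 1). With G1 minus G7 they were BAG1 (-0.0077), ST13 (-0.019) and HSF2 (-0.0053) under upper quartile scaling, ST13 also without G1 replicate 3 (-0.011) and HSF2 also in thinned libraries (-0.057).

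With 1 library left out in turn, these G7 minus NS values lay at -0.0034 to 0.185 for HSPA4L, -0.032 to 0.097 for DNAJC7, -0.14 to 0.069 for HSPB8, -0.013 to 0.023 for HSPA9 and -0.016 to 0.071 for HSF1, and the G1 minus G7 value of ST13 lay at -0.011 to 0.11.

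Same-numbered libraries of different groups deviated together with correlations of -0.076 to 0.199, and differently numbered ones with correlations of -0.191 to 0.186. The labels give groups and replicate numbers only, so the numbers were not taken as pairs. With the number as a replicate block, 37, 22 and 33 members were higher and 0 were lower in the 3 comparisons, and 4074, 1800 and 3165 of all genes were higher. Depth limits the tests of DNAJB4, which had 1 to 6 counts per library.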
